A study of Mus musculus with 8 samples.

Results

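The mitochondrial ribosomal proteins were followed in inguinal fat, a subcutaneous white depot, of mice lacking the lysophosphatidic acid receptor LPA4 (Lpar4 -/Y, LPA4-KO) and in wild-type mice (WT). All 8 mice were male littermates on a C57BL/6 background, aged 12 weeks and fed standard chow, with 4 mice and 4 arrays in each genotype. The part of Lpar4 that was removed is not given in the sources used here, and Lpar4 is X-linked, so the LPA4-KO males carried no wild-type copy. Genes entered the family by name alone, but the family itself was chosen with earlier results of these data known. Every probe set annotated with exactly 1 gene symbol made of Mrpl or Mrps and a number was taken, and the probe set with the highest mean over the 8 arrays stood for its gene. This gave 76 of the 18193 genes measured, 47 named Mrpl (large subunit) and 29 named Mrps (small subunit), from 156 of 45101 probe sets. A further 4 probe sets shared with a second gene were left out.

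The mitochondrial ribosome translates the few proteins encoded by mitochondrial DNA, all of them core parts of the respiratory chain and ATP synthase. Its RNA comes from the mitochondrial genome, but all of its proteins are encoded in the nucleus, made in the cytosol and imported. The large subunit joins amino acids and the small subunit reads the messenger RNA. Some of its proteins descend from those of bacterial ribosomes, and others have no bacterial counterpart. White adipocytes hold fewer mitochondria than brown adipocytes but use them for lipid synthesis and fatty acid oxidation.

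Values are log2 signals of the deposited table, and differences are LPA4-KO minus WT. Array medians lay between 6.73 and 6.74. Of the 3 Lpar4 probe sets, 1 fell by 1.12 in LPA4-KO (limma adjusted p = 0.0104 over all probe sets), whereas the others were higher by 0.71 and 0.53 without passing (0.144 and 0.128). Which of them lie in the deleted part is not known here. The tissue label was checked against 5 measured adipocyte markers, all of which stood at or above percentile 97.7 of all genes by mean signal. The signals of 3 epithelial markers stood at or below percentile 39.5. In bulk tissue, fewer cells of a type and less RNA per cell cannot be told apart.

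Most mitochondrial ribosomal genes held essentially 1 value on all 8 arrays. The SD over the arrays was 0.01 or more in 28 of the 76 genes (36.8%), called varying here, against 28.4% of all genes. By name, 17 of 47 Mrpl genes (36.2%) and 11 of 29 Mrps genes (37.9%) varied. The other 48 genes had a median SD of 0.000121. Closest to the limit were Mrpl14 (SD 0.0238) among varying genes and Mrps12 (SD 0.00695) among near-constant ones. The near-constant genes were not dim. Their mean signals had a median percentile of 81.8 among all genes, against 83.7 for the varying ones. The SD limit includes the difference between genotypes, so counts among varying genes are given beside the same count for all varying genes and serve only as a description.

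**Figure D1:**
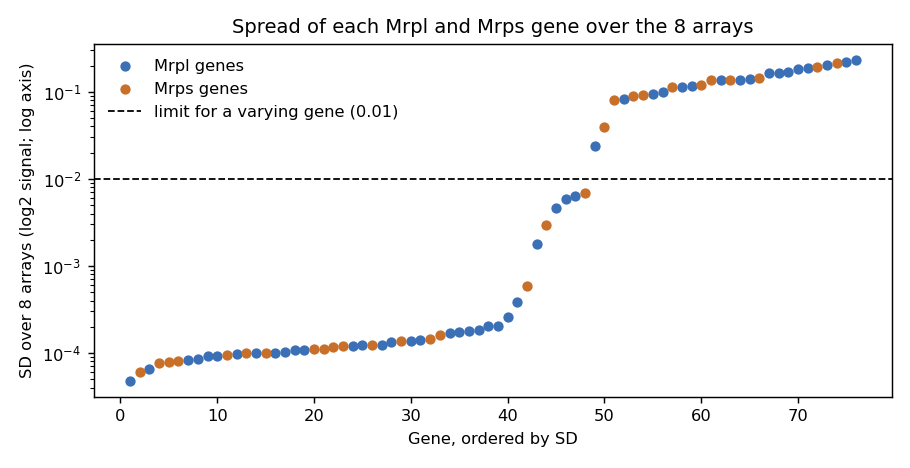
SD over the 8 arrays of each of the 76 genes (log axis, log2 signal), ordered by SD, with Mrpl genes in blue and Mrps genes in orange; the dashed line marks 0.01. Most points lie in a flat run near 0.0001 or in a run near 0.1, with some genes spread between them on both sides of the line. Both kinds of gene occur in each run.

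The near-constant genes of the large subunit were Mrpl1, Mrpl3, Mrpl4, Mrpl9, Mrpl10, Mrpl11, Mrpl13, Mrpl15, Mrpl17, Mrpl19, Mrpl22, Mrpl23, Mrpl24, Mrpl32, Mrpl35, Mrpl36, Mrpl37, Mrpl38, Mrpl43, Mrpl44, Mrpl45, Mrpl46, Mrpl47, Mrpl48, Mrpl50, Mrpl52, Mrpl54, Mrpl55, Mrpl57 and Mrpl58. In the small subunit they were Mrps2, Mrps5, Mrps9, Mrps10, Mrps11, Mrps12, Mrps15, Mrps18b, Mrps18c, Mrps23, Mrps24, Mrps26, Mrps27, Mrps30, Mrps31, Mrps33, Mrps34 and Mrps35. For these the table gives a level but hardly any spread. The values cannot show a change of the size seen in the varying genes, nor that none took place.

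More mitochondrial ribosomal genes were higher in LPA4-KO than lower. In limma over all 18193 genes (threshold 0.05, Benjamini-Hochberg adjustment over all genes), 11 of the 76 genes rose (14.5%) and 1 fell, where 2.39% of all genes rose and 1.64% fell (4.03% in either direction). The large subunit had 7 rising genes of 47 (14.9%) and 1 falling, Mrpl33. The small subunit had 4 rising of 29 (13.8%) and 0 falling in limma, where 0 of its genes were lower at an unadjusted p under 0.05 either. One of the 11, Mrps33, was near constant and differed by only 0.005. The other 10 were varying genes (1.89% of all genes rose and varied). The largest differences were those of Mrpl12 (0.39), Mrps22 (0.39), Mrpl2 (0.38), Mrpl42 (0.34), Mrpl49 (0.32) and Mrpl34 (0.30), that is 23.4% to 31.5% higher signals in LPA4-KO. Mrpl12 is the stalk protein that recruits translation factors, and Mrpl2 lies by the site where peptide bonds form.

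The calls depended on the fit and on single arrays. With the replicate number as a block, 0 of the 76 genes passed in limma over all genes, as did 0 of all 18193. At an unadjusted p under 0.05, 29 of the 76 were higher and 3 lower with the block, against 2121 and 1582 of the 18193. Without the block these were 37 and 1, against 2339 and 1833. Such counts include near-constant genes, for example Mrpl10 and Mrpl24, which both differed by 0.0002 (limma unadjusted p = 0.00379 and 0.00748 without the block). Leaving out LPA4-KO arrays 1 to 4 in turn gave 1, 4, 0 and 3 rising genes, and the same for the WT arrays gave 3, 2, 2 and 3. The share of all 18193 genes that passed with an array left out was not counted. A drop particular to these genes can therefore not be read from these counts. A block that only set numbers 1 and 2 apart from 3 and 4 left 7 genes that rose and 0 that fell in limma. Of all genes, 1.63% rose and 1.08% fell there (2.71% in either direction). At an unadjusted p under 0.05, 36 of the 76 genes were higher and 1 lower there, against 2414 and 1868 of all genes. Without LPA4-KO array 3, 33 of the 76 genes were higher and 1 lower at an unadjusted p under 0.05. That is more than the 28 varying genes, so near-constant genes were among them, and the share of all genes was not counted in this setting. When only the 5173 varying genes were tested, 13 of the 28 rose and 1 fell, against 14.9% and 12.2% of all varying genes. With the replicate block there, 8 rose and 0 fell (2 were lower at an unadjusted p under 0.05), against 10.3% and 9.24%. These 8 were Mrpl2, Mrpl12, Mrpl21, Mrpl34, Mrpl39, Mrpl42, Mrpl49 and Mrps22, each of which also passed in the fit over all genes without the block.

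**Figure D2:**
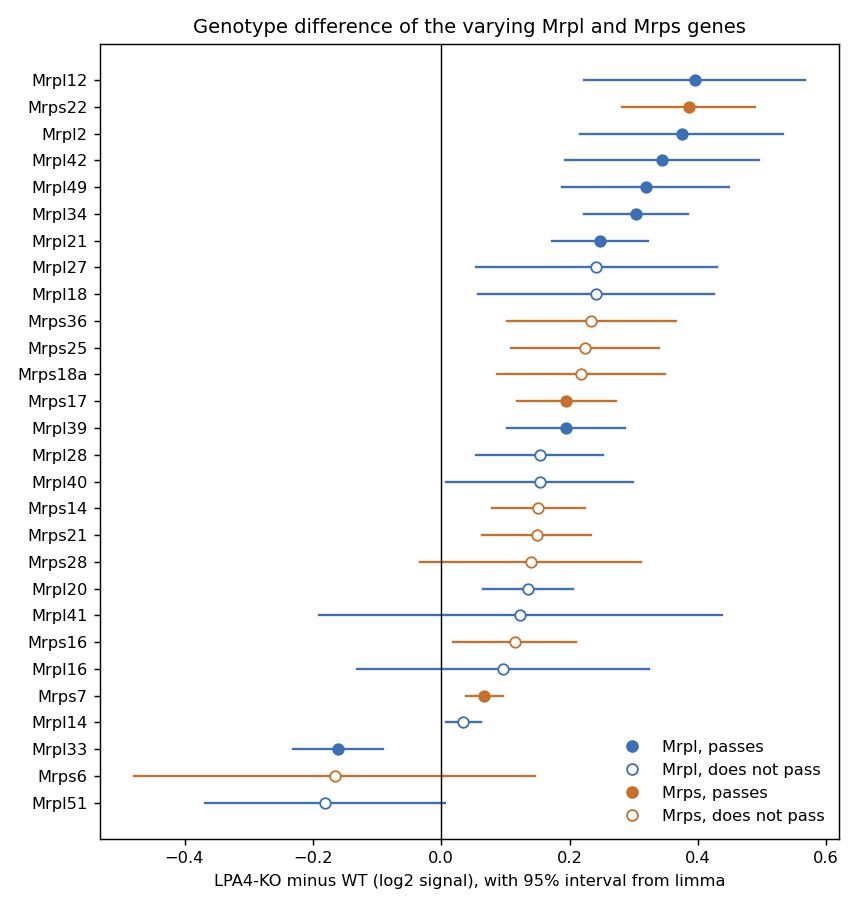
LPA4-KO minus WT difference (log2 signal, x axis) of the 28 varying genes with 95% intervals from limma over all genes; filled points pass at an adjusted p of 0.05, blue marks Mrpl and orange Mrps. All but Mrpl33, Mrps6 and Mrpl51 lie above 0, and the 11 filled points run from -0.16 (Mrpl33) to 0.39 (Mrpl12).

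Promoters of 5 of the passing genes are shown to let their start regions be compared, 4 for genes among the largest differences (Mrps22, Mrpl34, Mrpl2 and Mrpl12) and 1 for Mrpl33, the gene that fell. Each line gives the 250 bases before the annotated start, 5′ to 3′ on the gene's strand, from RefSeq on GRCm38.p6. Capitals mark matches to the searched motifs described after the sequences. Mrps22 lies at chr9:98601680-98601929 (minus strand), Mrpl34 at chr8:71464676-71464925 (plus), Mrpl2 at chr17:46645971-46646220 (plus, the most upstream of its 3 listed starts), Mrpl12 at chr11:120484387-120484636 (plus) and Mrpl33 at chr5:31613701-31613950 (plus).
Mrps22: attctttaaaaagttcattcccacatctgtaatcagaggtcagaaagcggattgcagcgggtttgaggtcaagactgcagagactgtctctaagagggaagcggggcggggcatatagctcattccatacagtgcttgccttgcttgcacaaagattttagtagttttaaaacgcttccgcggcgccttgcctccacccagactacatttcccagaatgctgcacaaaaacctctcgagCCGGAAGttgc
Mrpl34: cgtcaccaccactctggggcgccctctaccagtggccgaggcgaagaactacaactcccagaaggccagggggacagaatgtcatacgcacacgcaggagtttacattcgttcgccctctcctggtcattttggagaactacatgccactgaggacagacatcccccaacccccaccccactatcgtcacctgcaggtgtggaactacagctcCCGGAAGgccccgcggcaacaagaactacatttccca
Mrpl2: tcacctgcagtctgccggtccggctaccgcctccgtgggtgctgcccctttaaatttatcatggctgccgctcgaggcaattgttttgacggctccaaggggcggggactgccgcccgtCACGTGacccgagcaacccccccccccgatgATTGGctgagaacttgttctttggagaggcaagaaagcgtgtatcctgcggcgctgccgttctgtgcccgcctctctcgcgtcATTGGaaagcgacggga
Mrpl12: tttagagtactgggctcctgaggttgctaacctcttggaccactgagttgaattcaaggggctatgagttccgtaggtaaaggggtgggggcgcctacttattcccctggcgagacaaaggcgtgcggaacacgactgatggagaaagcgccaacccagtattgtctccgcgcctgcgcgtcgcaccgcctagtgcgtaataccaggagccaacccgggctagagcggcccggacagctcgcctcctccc
Mrpl33: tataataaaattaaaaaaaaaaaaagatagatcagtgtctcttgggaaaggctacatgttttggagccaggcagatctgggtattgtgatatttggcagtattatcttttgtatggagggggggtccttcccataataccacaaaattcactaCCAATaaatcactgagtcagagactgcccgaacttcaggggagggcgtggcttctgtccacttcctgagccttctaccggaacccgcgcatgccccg
In Mrps22 the capitals are an ETS core, CCGGAAG, starting 11 bases before the start, and in Mrpl34 the same core starts 37 bases before it. Mrpl2 holds an E-box (CACGTG) and 2 CCAAT boxes, read as ATTGG on this strand. Mrpl12 holds none of the searched motifs. Mrpl33 holds 1 CCAAT box, and an ETS core that starts 3 bases before the start and runs past the printed stretch.

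The search covered 5 motifs on both strands in windows of 300 bases, 250 before to 50 after each start. They were the ETS core CCGGAAG, bound by ETS factors such as GABPA, the YY1 core AAGATGGCG, the NRF1 core (GCGCA followed directly by its reverse complement), the E-box CACGTG and the CCAAT box. The ETS core ends and the YY1 core begins with AAG, but these matches overlapped in 0 promoters of these genes. RefSeq promoters matched 67 of the 76 genes by symbol, and those without an entry were Mrpl4, Mrpl13, Mrpl15, Mrpl19, Mrpl38, Mrpl54, Mrps28, Mrps34 and Mrps35. An ETS core was present in 25 of the 67 genes (37.3%), against 15% of the 14452 genes on the array with a promoter. Of all 27025 genes with a listed promoter, 9.93% had one. A YY1 core was present in 8 (11.9%), against 2.53% of genes on the array and 1.4% of all promoters. An NRF1 core was present in 3 (4.48%), namely Mrpl9, Mrpl32 and Mrpl39, against 1.75% and 1.07%. E-boxes were present in 7.46%, against 10.2% and 8.09%, and CCAAT boxes in 38.8%, against 42% and 41.1%. Median GC content was 58.7% in these promoters and 58.3% over genes on the array. Varying and near-constant genes had like shares of ETS cores, 10 of 27 (37%) and 15 of 40 (37.5%). A match is a string of letters and does not show binding.

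The rising genes of the large subunit are given first. Mrpl12, whose protein forms the stalk, had log2 signals of 9.50, 9.35, 9.61 and 9.35 in LPA4-KO arrays 1 to 4 and of 9.12, 9.003, 9.12 and 8.99 in WT arrays 1 to 4. Its difference was 0.39 ± 0.07 (SE, n = 4 against 4; limma adjusted p = 0.0420). Every LPA4-KO array was above every WT array, with a gap of 0.22. Mrpl2, the counterpart of bacterial protein L2, stood at 9.31, 9.23, 9.28 and 9.15 in LPA4-KO and at 8.85, 8.72, 8.93 and 8.98 in WT. The difference of 0.38 ± 0.07 passed (adjusted p = 0.0395), and the lowest LPA4-KO array, number 4, lay 0.17 above the highest WT array, also number 4. Mrpl34, the counterpart of bacterial L34, had 8.94, 8.83, 8.88 and 8.84 in LPA4-KO against 8.50, 8.58, 8.60 and 8.59 in WT. It had the smallest p of all 76 genes (difference 0.30 ± 0.03, adjusted p = 0.0160), and its genotypes were 0.23 apart.

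Mrpl42, a protein without a bacterial counterpart, read 9.76, 9.57, 9.66 and 9.59 in LPA4-KO and 9.38, 9.37, 9.23 and 9.20 in WT. It rose by 0.34 ± 0.06 (adjusted p = 0.0420), and its WT arrays 1 and 2 were the higher of that genotype. Mrpl49, also specific to mitochondria, read 8.66, 8.45, 8.63 and 8.54 in LPA4-KO and 8.20, 8.21, 8.26 and 8.33 in WT. The difference was 0.32 ± 0.05 (adjusted p = 0.0368), with LPA4-KO array 2 nearest to the WT arrays. A second probe set for Mrpl49 differed by 0.20 without passing over all probe sets (adjusted p = 0.109).

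Mrpl21, the counterpart of bacterial L21, gave the tightest LPA4-KO values among the rising Mrpl genes, 8.23, 8.26, 8.31 and 8.25, against 8.05, 8.07, 8.004 and 7.94 in WT. The difference was 0.25 ± 0.03 (adjusted p = 0.0229). It rests on 1 of 3 probe sets, with a suffix for alternative transcripts. The other 2 were near constant, so that without suffixed probe sets the difference was 0.0001 (adjusted p = 0.517) and with the mean of all 3 it was 0.08 (0.0213). The near-constant probe sets shrink the difference and its error nearly alike in that mean, so its p is no separate check. Mrpl39, which resembles a threonyl-tRNA synthetase but is a structural protein, had 10.04, 9.98, 10.02 and 10.11 in LPA4-KO and 9.84, 9.77, 9.90 and 9.87 in WT. It differed by 0.20 ± 0.04 and was close to the threshold (adjusted p = 0.0485). Its second, dimmer probe set differed by 0.29 (adjusted p = 0.0480 over all probe sets, against 0.0602 for the one that stands for the gene). In both probe sets of Mrpl39 the genotypes were apart.

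Mrpl33, the counterpart of bacterial L33, went the other way. Its signals were 8.36, 8.46, 8.40 and 8.45 in LPA4-KO and 8.56, 8.54, 8.61 and 8.60 in WT, so every LPA4-KO array was below every WT array. The difference was -0.16 ± 0.03 (adjusted p = 0.0419). With the replicate block among varying genes it did not pass (0.0722), and after quantile normalization limma called 0 genes of the family lower, with 2 lower at an unadjusted p under 0.05.

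In the small subunit, Mrps22 had the largest difference. Mrps22, a protein specific to mitochondria, read 8.52, 8.42, 8.56 and 8.39 in LPA4-KO and 8.05, 8.13, 8.07 and 8.09 in WT, a difference of 0.39 ± 0.04 (adjusted p = 0.0162). The genotypes were 0.26 apart, the widest gap of the 28 varying genes. Mrps17, the counterpart of bacterial S17, had 9.55, 9.50, 9.53 and 9.43 in LPA4-KO and 9.34, 9.29, 9.26 and 9.33 in WT. It rose by 0.20 ± 0.03 (adjusted p = 0.0350), and among varying genes it passed without (0.0210) but not with the replicate block (0.0550). Mrps7, which in bacteria binds messenger RNA and transfer RNA in the head of the subunit, read 9.09, 9.05, 9.08 and 9.06 in LPA4-KO and 9.02, 8.98, 9.01 and 9.005 in WT. Its difference of 0.07 ± 0.01 was called over all genes (adjusted p = 0.0408) on account of very small spreads, 0.02 in each genotype, and was not called among varying genes (0.197).

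**Figure D3:**
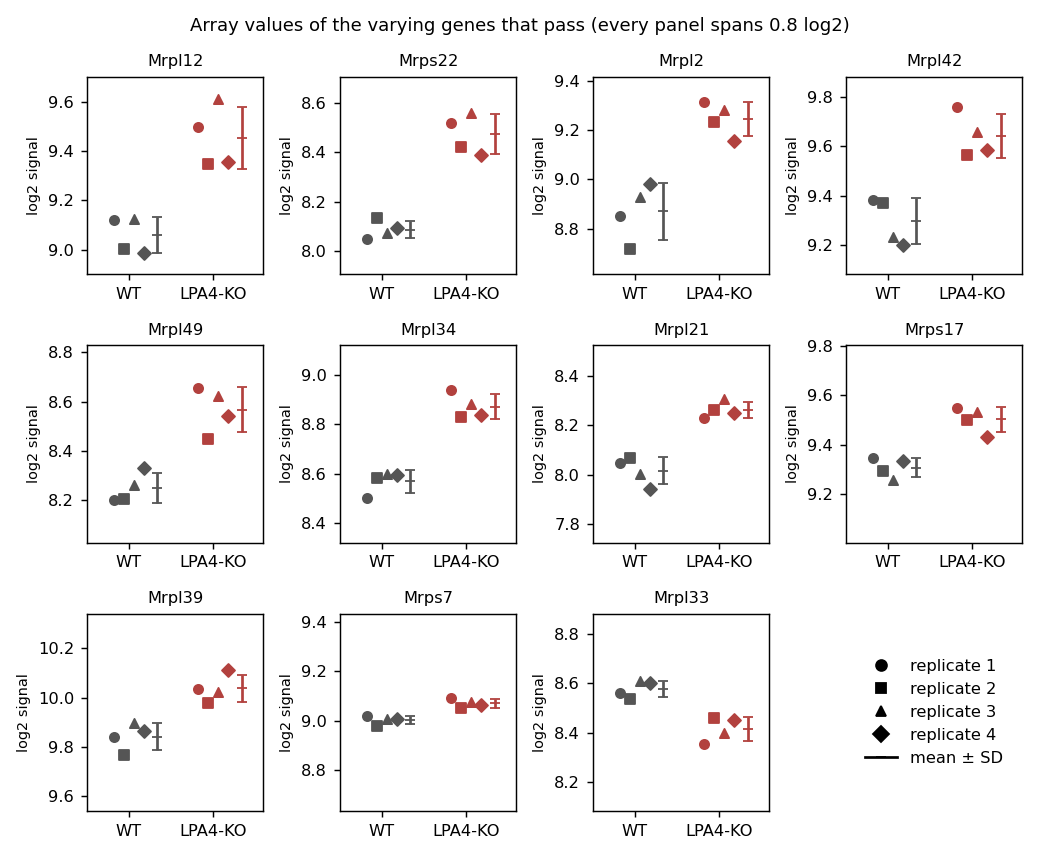
Array values (log2 signal) of the 11 varying genes that pass limma over all genes, WT in grey and LPA4-KO in red, with replicate numbers as marker shapes and mean ± SD (n = 4) beside each group; every panel spans 0.8 log2. The genotypes are apart in each panel, with LPA4-KO above WT except in Mrpl33.

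A further 8 varying genes had every LPA4-KO array above every WT array without passing over all genes, 3 named Mrpl and 5 named Mrps. In the large subunit these were Mrpl27 (0.24 ± 0.08, SE), whose bacterial counterpart reaches into the peptidyl transferase centre, Mrpl28 (0.15 ± 0.04), Mrpl20 (0.14 ± 0.03). By symbol, the others belong to the small subunit, Mrps36 (0.23 ± 0.05), Mrps25 (0.22 ± 0.05), Mrps18a (0.22 ± 0.05), Mrps14 (0.15 ± 0.03) and Mrps21 (0.15 ± 0.04). Their limma adjusted p ran from 0.0507 (Mrps14) to 0.136 (Mrpl27). Mrps14, Mrps18a, Mrps25 and Mrps36 passed when only varying genes were tested (0.0406, 0.0331, 0.0245 and 0.0273), and none of them with the replicate block there (0.0807, 0.0600, 0.0548 and 0.0684). Mrps36 is known as a part of the 2-oxoglutarate dehydrogenase complex despite its name.

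The signals of Mrps36 were 8.49, 8.41, 8.55 and 8.49 in LPA4-KO and 8.31, 8.28, 8.11 and 8.31 in WT. Both probe sets of Mrps25 differed alike (0.22 and 0.22), and the dimmer one passed over all probe sets (adjusted p = 0.0472) whereas the brighter, which stands for the gene, did not (0.0705). Mrpl27 was the loosest of these genes. Its LPA4-KO arrays read 10.34, 10.22, 10.25 and 10.11 and its WT arrays 10.04, 10.004, 9.80 and 10.10, so LPA4-KO array 4 and WT array 4 differed by 0.01 only.

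The Mrps18 family has 3 paralogues, of which only Mrps18a varied. Mrps18a read 9.24, 9.01, 9.09 and 9.09 in LPA4-KO and 8.91, 8.92, 8.91 and 8.81 in WT, a difference of 0.22 (95% interval 0.09 to 0.35). Mrps18b stood at 8.68 and Mrps18c at 9.56 on all 8 arrays. In the structure of the mammalian mitochondrial ribosome the Mrps18a protein sits in the large subunit, and Mrps30 does too.

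In 9 varying genes the genotypes overlapped. Of these, Mrpl18 (difference 0.24, 95% interval 0.06 to 0.42), Mrpl40 (0.15, 0.01 to 0.30), Mrps16 (0.11, 0.02 to 0.21) and Mrpl14 (0.03, 0.01 to 0.06) had intervals above 0 but did not pass (adjusted p from 0.132 to 0.200). Mrps28 (0.14), Mrpl41 (0.12) and Mrpl16 (0.10) had intervals that included 0. Mrpl51 (-0.18, interval -0.37 to 0.01) and Mrps6 (-0.17, interval -0.48 to 0.15) had lower means in LPA4-KO. WT array 3 was the highest of the 8 in Mrpl51, where it read 11.08 against 10.74 to 10.83 in the other WT arrays. It was also the highest of the 8 arrays in Mrpl41 (10.11).

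Over the 28 varying genes, 25 had a higher mean in LPA4-KO (89.3%), against 52.3% of all varying genes. The genotypes were apart with LPA4-KO higher in 18 genes (64.3%, against 18.2% of all varying genes) and with LPA4-KO lower in 1 (against 15%). By replicate number, LPA4-KO exceeded WT in all 4 pairs in 22 of the 28 genes, against 27.8% of all varying genes, and in 0 pairs in Mrpl33 and Mrpl51. Of the 25 genes with a higher LPA4-KO mean, LPA4-KO array 1 was the highest of all 8 arrays in 12 and array 3 in 8. WT array 3 was the lowest of the 8 in 10 of these genes and WT array 2 in 6.

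The subunits were set side by side as the mean of their varying genes on each array. For the 17 Mrpl genes it was 9.26, 9.20, 9.25 and 9.18 in LPA4-KO and 9.05, 9.01, 9.06 and 9.06 in WT. For the 11 Mrps genes the mean was 9.16, 9.11, 9.20 and 9.13 in LPA4-KO and 9.02, 9.02, 8.93 and 9.01 in WT. The difference was 0.18 in the large subunit and 0.16 in the small, and in both the genotypes were apart. The median difference was 0.20 over the varying Mrpl genes and 0.15 over the varying Mrps genes, against 0.01 over all varying genes. Over all members, near-constant ones included, the mean differences were 0.06 and 0.06. Among varying genes in limma, 7 of 17 Mrpl genes rose and 1 fell, and 6 of 11 Mrps genes rose and 0 fell. All varying genes gave 14.9% rising and 12.2% falling. With the replicate block there, 7 Mrpl genes and 1 Mrps gene rose and 0 fell, against 10.3% and 9.24% of all varying genes. At an unadjusted p under 0.05, 2 Mrpl and 0 Mrps genes were lower with the block. The split between subunits was not tested.

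The offset between subunits did not separate the genotypes. The Mrpl mean minus the Mrps mean was 0.07 ± 0.02 in LPA4-KO and 0.05 ± 0.06 in WT (SD, n = 4), with overlapping arrays. The genotype difference of this offset was 0.08 in replicate numbers 1 and 2 and -0.04 in numbers 3 and 4. With Mrps18a and Mrps30 counted in the large subunit and Mrps36 left out, the differences of the varying genes were 0.18 and 0.14. No p is given for these means, since the family was chosen with earlier results of these data known.

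**Figure D4:**
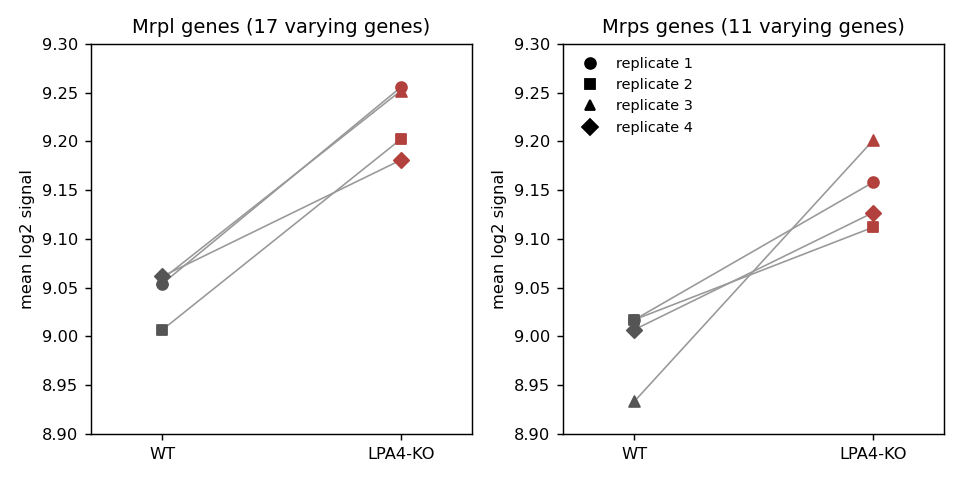
Mean log2 signal (y axis) of the 17 varying Mrpl genes (left) and the 11 varying Mrps genes (right) on each array; grey lines join arrays with the same replicate number. In both panels the 4 LPA4-KO arrays lie above the 4 WT arrays, by 0.18 and 0.16 on average.

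Genes were also split by whether the protein has a bacterial counterpart. Of 47 genes with one, 19 varied (40.4%), 6 rose (12.8%) and 1 fell over all genes. Of 29 genes specific to mitochondria, 9 varied (31%), 5 rose (17.2%) and 0 fell in limma, where 0 were lower at an unadjusted p under 0.05. These 5 include the near-constant Mrps33, which differed by only 0.005. All genes gave 2.39% rising. When only varying genes were tested, 7 of 19 (36.8%) and 6 of 9 (66.7%) rose, against 14.9% of all varying genes. The 6 include Mrps36, the part of the 2-oxoglutarate dehydrogenase complex. With the replicate block there, 4 of 19 and 4 of 9 rose, against 10.3% of all varying genes. In that fit 0 fell, with 1 of each kind lower at an unadjusted p under 0.05. Median differences of the varying genes were 0.15 and 0.22. The difference between these kinds of gene was not tested.

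Other probe sets of the same genes were compared with those that stand for them. Of the 156 probe sets 39 varied, 11 of which did not stand for their gene. In 6 genes both the brightest and another probe set varied (Mrpl28, Mrpl39, Mrpl41, Mrpl49, Mrps6 and Mrps25), and the sign was the same within each gene. In 5 near-constant genes only a dimmer probe set varied. The largest of these was Mrps15, the counterpart of bacterial S15, whose dimmer probe set read 8.81, 8.52, 8.50 and 8.32 in LPA4-KO and 8.17, 8.26, 7.94 and 8.18 in WT. Its difference of 0.40 did not pass over all probe sets (adjusted p = 0.131). Dimmer probe sets of Mrpl50 (0.17), Mrpl13 (0.12), Mrpl9 (-0.0008) and Mrpl15 (-0.26) did not pass either. In that of Mrpl15 every LPA4-KO array was below every WT array. These genes were named after their values were seen. Mrpl34, Mrpl42 and Mrpl33 each have a second, near-constant probe set, and with the mean of all probe sets their differences were 0.15, 0.17 and -0.08 (limma adjusted p = 0.0153, 0.0409 and 0.0404). Averaging with near-constant values shrinks a difference and its error nearly alike, so these p could hardly change and are no separate check.

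Genes that build or drive the mitochondrial ribosome were read with the same fit. Of 41 measured translation and assembly factors, 14 varied (34.1%, against 28.4% of all genes). At an unadjusted p under 0.05, 13 were higher and 4 lower, against 2339 and 1833 of all 18193 genes. In limma over all genes 4 rose (9.76%) and 0 fell, against 2.39% and 1.64% of all genes. Lrpprc, which stabilises mitochondrial messenger RNAs, had the largest difference of these, from 7.94, 7.88, 7.84 and 7.84 in WT to 8.16, 8.23, 8.26 and 8.18 in LPA4-KO (0.33 ± 0.03, adjusted p = 0.0140). The others were the elongation factor Gfm1 (0.22, adjusted p = 0.0319), Dap3 (0.19, 0.0346) and Ptcd3 (0.24, 0.0499), the last of which are small subunit proteins without an Mrps symbol. Dap3 did not pass among varying genes with the replicate block (0.0511), whereas Lrpprc (0.0286), Gfm1 (0.0471) and Ptcd3 (0.0330) did. When only varying genes were tested, 7 of the 14 rose and 1, Oxa1l, fell, against 14.9% and 12.2% of all varying genes. Oxa1l was lower by 0.19 without overlap (limma adjusted p = 0.0471 among varying genes). It did not pass with the replicate block there (0.103) or over all genes (0.101).

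Other gene groups give the scale of these counts, beside 2.39% rising and 1.64% falling among all genes. Of 34 complex I subunits, 27 varied, 8 rose (23.5%) and 0 fell in limma. There 23 were higher and 1 lower at an unadjusted p under 0.05, against 2339 and 1833 of all 18193 genes. The median difference of the varying ones was 0.18. Of 46 cytosolic ribosomal protein genes, 29 varied, 0 rose and 2 fell, where 0 were higher and 17 lower at an unadjusted p under 0.05. Their varying genes had a median difference of -0.08, and 26 of the 29 had lower means in LPA4-KO. Whether these groups differ from the mitochondrial ribosome was not tested.

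**Figure D5:**
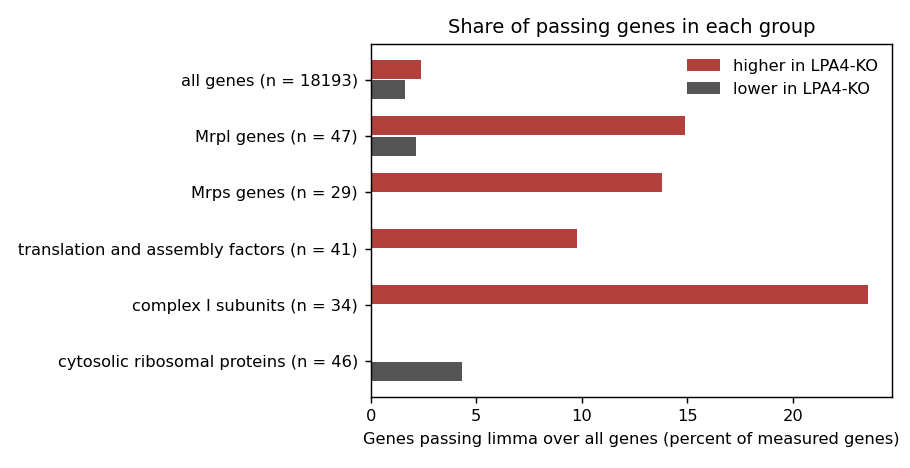
Percent of measured genes that pass limma over all genes, higher (red) or lower (grey) in LPA4-KO, for all genes and 5 gene groups. The 47 Mrpl and 29 Mrps genes stand at 14.9% and 13.8% higher, against 2.39% of all genes.

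Other measures moved with genotype or with replicate number beside these genes. Signals of 18S ribosomal RNA, given by 3 control probe sets, were higher in LPA4-KO without overlap (0.44, 0.22 and 0.28). The mean of 5 endothelial markers was 9.34 ± 0.11 in LPA4-KO and 9.65 ± 0.10 in WT (SD, n = 4) without overlap. Esam passed over all genes, and 4 of the 5 were lower in limma among varying genes. Of these 4, Cdh5 (adjusted p = 0.0424) did not pass with the replicate block (0.0761). The 1 measured Schwann cell marker, Mbp, fell by 1.56 among varying genes (adjusted p = 0.0245, and 0.0272 with the replicate block). It did not pass over all genes (0.1). The mean of 6 brown and beige adipocyte markers was higher in LPA4-KO by 0.15, and higher in each pair of replicate numbers (0.11, 0.17, 0.10 and 0.23), with ranges that overlapped (7.09 to 7.33 in LPA4-KO and 6.98 to 7.19 in WT). Only 3 of the 6 varied, namely Cox8b, Cox7a1 (0.27) and Cidea (0.11), so the mean rests on these. None of the 6 passed over all genes. Cox8b, a cytochrome oxidase subunit typical of brown fat and muscle, differed by 0.54 (adjusted p = 0.147) and passed among varying genes (0.0449, and 0.0301 with the replicate block). Ucp1, the defining gene of brown fat, was near constant at 6.17, at percentile 12.2 of all genes. The mean of 5 adipocyte markers ranged from 12.53 to 12.63 in LPA4-KO and from 12.54 to 12.64 in WT. Of these, Adipoq rose over all genes (difference 0.25, limma adjusted p = 0.0486). Restricted to varying genes, its adjusted p was 0.0192, but 0.0534 once the replicate block was added. Lep had a lower mean (-0.38) and passed in that blocked fit (0.0331), though not over all genes (0.244) or in the unblocked varying-gene fit (0.0949). Cidec (0.15), Lipe (-0.05) and Fabp4 (-0.0001) did not pass. The mean of 12 skeletal muscle markers, of which 0 passed, ran from 6.37 to 9.47 and from 6.44 to 9.11, high in numbers 1 and 2 of both genotypes. Macrophage markers (6 genes, 0 passing) ranged from 9.61 to 9.83 and from 8.71 to 10.05. Lymphocyte markers (4 genes, of which only 1 varied, 0 passing) ranged from 6.65 to 6.74 and from 6.51 to 6.70. Fibroblast markers (3 genes, 0 passing) ranged from 10.32 to 10.66 and from 10.17 to 10.73. The mean of the 28 varying genes was higher in LPA4-KO by 0.17 within numbers 1 and 2 and by 0.17 within numbers 3 and 4. The part of 18S signal and of the content of any of these cell types, skeletal muscle and macrophages included, in the result was not tested.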

How the data were processed

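Total RNA of inguinal fat from 8 mice (100 ng each) was labelled and run on Affymetrix 3′ arrays, per the labels' protocols. The deposited table holds log2 values of 45101 probe sets; their scale was read from the values (4.93 to 14.30). The submitters' processing notes name R 2.14.0. Background correction, normalization and summarisation: not given in the sources used here. How 78.7% of probe sets came to have an SD under 0.01 over the arrays is not known. Genes were named through the platform annotation, and the identifiers of all 156 probe sets of the family were found in the table of GRCm38.p6 genes.

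The brightest single-gene probe set stood for each of 18193 genes. LPA4-KO was compared with WT, 4 against 4 mice, with two-sided moderated tests of limma 3.58.1 (R 4.3.3), adjusted over all genes by Benjamini-Hochberg with a threshold of 0.05; the script was tested on simulated data. Prior degrees of freedom were 0.332 over all genes and 2 over varying genes. Replicate numbers 1 to 4 occur in both genotypes. Deviations of same-numbered arrays from their genotype means correlated across genes at 0.315, 0.486, 0.189 and 0.244, each over 0.1. The replicate block is therefore given where it changes the call of a gene named in the text. This pairing comes from the data alone, and single numbers were not always the best match: LPA4-KO 3 with WT 4 gave 0.364, LPA4-KO 4 with WT 3 gave 0.266 and LPA4-KO 2 with WT 1 gave 0.22, while arrays from numbers 1 and 2 against those from 3 and 4 all correlated below 0. A block of numbers 1 and 2 against 3 and 4 is given too. The genes named are the varying members that pass, those whose genotypes do not overlap, the 3 smallest differences and the Mrps18 paralogues; others are named to account for every member. The family, gene lists, tests and alternatives were chosen with earlier results of these data known. Precision is limited by the number of arrays.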

Additional observations from a re-analysis of the deposited data

Results flagged for a closer look

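Of 46 groups of 4 arrays, 7 had a single array set far apart, where chance gives about 1 in 20; these groups share arrays and are not independent. Low arrays were WT array 1 in Mrpl34 (8.50), WT array 3 in Mrps36 (8.11), LPA4-KO array 2 in Mrps25 (7.63) and WT array 4 in Mrps18a (8.81). In Mrps21, LPA4-KO array 1 was high (9.33). Among the subunit means of varying genes, WT array 2 was low for the Mrpl genes (9.01) and WT array 3 for the Mrps genes (8.93).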

How the results depend on the processing

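The count of 11 rising genes became 0 with the replicate block over all genes, 7 with a block of only 2 levels (numbers 1 and 2, then 3 and 4), 6 when probe sets with a suffix for shared or alternative transcripts were left out (62 genes remained), and 0 to 4 when single arrays were left out. The 1 falling gene, Mrpl33, became 0 under both blocks, under the replicate block among varying genes, after quantile normalization and without any single array. Among varying genes, 13 rising and 1 falling genes became 8 and 0 with the replicate block, and 7 to 12 and 0 to 1 when single arrays were left out, an alternative added after seeing the data. Mean differences of all Mrpl and Mrps genes (0.06 and 0.06) became 0.18 and 0.16 over varying genes, whether or not the replicate block was used, and 0.0875 for Mrps genes without the suffixed probe sets. The cause was not tested, except that the last 2 change which genes enter. Alternatives were run gene by gene for 21 varying genes (those that passed, those without overlap and the 3 smallest differences), and none of these changed sign. Mrpl49, Mrps7, Mrps17 and Mrpl20 have no probe set without a suffix. Except for the blocks and the fit to varying genes, the share of all genes was not counted under these alternatives. The small number of arrays and the near-constant values limit what can be detected.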
